A study of Homo sapiens with 12 samples.

Results

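E-cadherin (CDH1) and 9 further genes of the epithelial-mesenchymal switch were followed through RNA sequencing of 2 human kidney carcinoma cell lines, 769-P and ACHN. The 10 genes were chosen by name from the 58302 genes in the deposited values: the cadherins CDH1 and CDH2, the repressors SNAI1, SNAI2, ZEB1, ZEB2, TWIST1 and TWIST2, the matrix protein gene FN1 and the epithelial surface gene EPCAM. Each cell line was transfected for 48 h with siNUF2, a mixture of 2 siRNAs against NUF2 (a kinetochore protein needed for attachment of chromosomes to the spindle), or with siControl, a non-targeting siRNA. Each of the 4 groups had 3 libraries of total RNA, and the siControl groups were transfected too. The submitters label both lines as clear cell renal cell carcinoma, and each is 1 established line, so cell lines and not tumours were compared. The labels do not say whether replicates came from separate cultures, so p-values measure only the spread between these libraries.

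E-cadherin joins neighbouring epithelial cells through their adherens junctions, and its loss together with a gain of N-cadherin, fibronectin and vimentin is the classical readout of epithelial-mesenchymal transition. The SNAI, ZEB and TWIST proteins are transcription factors that repress CDH1, SNAI and ZEB proteins by binding E-box sequences in its promoter. Renal tubule epithelium is unusual in that it can hold N-cadherin and vimentin beside keratins without being mesenchymal.

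Values are given as FPKM, a level of fragments per length of exon and per depth of the library, which allows genes to be compared. Positions are those of GENCODE 29 on GRCh38. Reads recovered from the FPKM gave 29086280 to 38584199 per library. NUF2, the targeted gene, was at 4.17, 3.86 and 3.01 FPKM with siNUF2 in 769-P cells against 19.4, 17.8 and 17.8 FPKM with siControl. With siNUF2 ACHN cells held 2.16, 5.14 and 4.25 FPKM against 11.6, 15.0 and 14.8 FPKM. The siNUF2 libraries were thus all below the siControl libraries in both lines. PAX8, a transcription factor of the renal lineage, was at 44.7 FPKM or above in every library. CA9, a marker of clear cell carcinoma, was at or below 0.121 FPKM in every library of either line. Other genes of the renal carcinoma list were not absent. ANGPTL4 had means of 1.14 FPKM in 769-P siControl and 23.8 FPKM in ACHN siControl, and NDUFA4L2 of 0.0272 and 3.29 FPKM. The keratin gene KRT8 and the intermediate filament gene VIM were abundant in both lines, with means of 91.9 and 144 FPKM in 769-P siControl and 119 and 152 FPKM in ACHN siControl. All 5 leukocyte and all 4 endothelial markers were below 0.5 FPKM in every library, with summed levels of at most 0.458 and 0.0877 FPKM.

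The first question was how the 10 genes stood in each line without NUF2 siRNA. ACHN cells held CDH1 and EPCAM, and with them more FN1, ZEB2 and TWIST2, whereas 769-P cells had almost no CDH1 and more CDH2 and SNAI1. ZEB1 did not pass the test between the lines, and TWIST1 had no read in any library. Of the 10 genes, 8 passed the filter of at least 0.5 FPKM in 3 libraries, and 7 of them differed (limma on log2(FPKM + 0.1), adjusted p under 0.05 over all genes tested), 5 higher and 2 lower in ACHN. Most genes differed between these lines: 61.5% of the 15376 genes tested passed the same threshold, 29.3% higher and 32.2% lower in ACHN, so a count of 7 in 8 is read against that share. CDH1, ZEB2 and TWIST2 passed the filter only through ACHN and SNAI1 only through 769-P, the line where each was higher, so these genes had to differ and the count is a description. The libraries of the lines did not overlap for 8 of the 10 genes, as for 68.3% of the genes tested. Fold changes on this scale understate the change of low genes.

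CDH1 (ENSG00000039068, chromosome 16 of GRCh38 from 68737225 to 68835548, forward strand) was at 0.00550, 0 and 0 FPKM in the 3 siControl libraries of 769-P, which is 1 read in all. In the siControl libraries of ACHN it was at 10.1, 5.28 and 4.69 FPKM, 4240 reads in all. The ratio of reads per fragment sequenced was 3788, with an exact 95% interval of 680 to 149658 that covers counting error only. On the log2 scale the difference was 5.96 (SE 0.31, adjusted p = 1.36e-05, limma). EPCAM (ENSG00000119888, chromosome 2 from 47345158 to 47387601), which encodes an adhesion molecule of simple epithelia, was at 0.728, 1.06 and 0.711 FPKM in 769-P and at 8.85, 19.3 and 15.6 FPKM in ACHN. The groups did not overlap, and the difference was 3.89 on the log2 scale (SE 0.31, adjusted p = 7.11e-05, limma). 769-P cells thus retained low EPCAM where CDH1 was near the limit of detection, which 3 reads put at 0.0150 to 0.0165 FPKM in their siControl libraries.

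N-cadherin (CDH2, ENSG00000170558, chromosome 18 from 27950966 to 28177446, reverse strand) was at 65.5, 69.7 and 77.2 FPKM in 769-P siControl and at 41.5, 31.1 and 46.4 FPKM in ACHN siControl. It was the most abundant of the 10 genes in every 769-P library, and in ACHN it was lower by 0.89 on the log2 scale (log2 difference -0.89, SE 0.16, adjusted p = 0.00269, limma). ACHN cells nevertheless held more CDH2 than CDH1 in each library: CDH1 was 24.4, 17.0 and 10.1% of the CDH2 level under siControl. In 769-P the same share was 0.00839% in replicate 1 and 0 in the others.

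Fibronectin (FN1, ENSG00000115414, chromosome 2 from 215360440 to 215436172, reverse strand), a matrix protein that rises in epithelial-mesenchymal transition, was at 1.51, 2.45 and 2.32 FPKM in 769-P siControl. In ACHN siControl it was at 304, 40.3 and 104 FPKM. Every ACHN library lay above every 769-P library, and the difference was 5.62 on the log2 scale (SE 0.67, adjusted p = 0.000439, limma). The gene that marks mesenchymal matrix was therefore higher in the line that also held E-cadherin, and FN1 made up 80.9, 38.3 and 57.3% of the summed FPKM of the 10 genes there.

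Among the repressors, SNAI1 (ENSG00000124216, chromosome 20 from 49982999 to 49988886), which encodes Snail, was at 1.25, 0.888 and 0.696 FPKM in 769-P and at 0.189, 0.508 and 0.253 FPKM in ACHN under siControl. The log2 difference was -1.40 (SE 0.34, adjusted p = 0.0111, limma), and the groups did not overlap. SNAI2, which encodes Slug, was at 0.169, 0.0566 and 0.0700 FPKM in 769-P and at 0.173, 1.66 and 0.980 FPKM in ACHN, and did not pass the filter, since replicate 1 of ACHN held 12 reads. Its ACHN libraries were all above the 769-P libraries, but replicate 1 only just.

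The ZEB pair behaved unlike each other between the lines. ZEB1 (ENSG00000148516, chromosome 10 from 31318495 to 31529814) was at 3.10, 2.72 and 4.18 FPKM in 769-P and at 2.99, 2.01 and 2.88 FPKM in ACHN under siControl. The groups overlapped, with a log2 difference of -0.37 (95% interval -0.89 to 0.16, adjusted p = 0.186, limma). ZEB2 (ENSG00000169554, chromosome 2 from 144364364 to 144524583, reverse strand) was at 0.276, 0.302 and 0.326 FPKM in 769-P and at 3.59, 2.07 and 3.26 FPKM in ACHN. It was higher in ACHN by 2.87 on the log2 scale (SE 0.23, adjusted p = 8.28e-05, limma). ZEB2 was thus 8.89, 11.1 and 7.81% of the ZEB1 level in 769-P and 120, 103 and 113% of it in ACHN.

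Promoter sequence was held in the RefSeq table for 5 of the 10 genes: CDH2, ZEB1, ZEB2, TWIST2 and FN1. The 300 bases around the RefSeq start of ZEB1 and ZEB2 (250 before and 50 from it, GRCh38.p14) are shown because these paralogues differed in how their levels compared between the lines. Any E-box CACCTG, searched on both strands and so also as CAGGTG, is in capitals. These starts differ from the GENCODE gene bounds given above. The ZEB1 window ends before that gene begins, and the ZEB2 window lies inside the gene.
ZEB1, chr10:31318167-31318466, forward strand: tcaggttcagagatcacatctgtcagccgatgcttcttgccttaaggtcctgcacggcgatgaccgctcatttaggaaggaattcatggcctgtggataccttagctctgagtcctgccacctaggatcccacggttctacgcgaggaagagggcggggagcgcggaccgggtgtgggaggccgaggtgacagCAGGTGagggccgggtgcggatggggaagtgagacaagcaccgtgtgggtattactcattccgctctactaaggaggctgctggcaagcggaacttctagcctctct
ZEB2, chr2:144520070-144520369, reverse strand: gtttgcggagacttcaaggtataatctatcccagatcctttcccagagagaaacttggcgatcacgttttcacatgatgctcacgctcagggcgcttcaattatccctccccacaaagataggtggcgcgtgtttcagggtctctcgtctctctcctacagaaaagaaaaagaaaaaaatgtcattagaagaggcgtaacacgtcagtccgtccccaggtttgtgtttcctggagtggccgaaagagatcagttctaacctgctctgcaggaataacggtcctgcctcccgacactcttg
ZEB1 held 1 match and ZEB2, like CDH2, TWIST2 and FN1, held 0. Of all 35116 promoters of this length, 20.6% held at least 1. A match is a run of letters and was not measured as a bound site.

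TWIST2 (ENSG00000233608, chromosome 2 from 238848032 to 238910543), a basic helix-loop-helix repressor, was at 0, 0 and 0.0164 FPKM in 769-P siControl, 1 read in all, and at 4.26, 2.98 and 3.36 FPKM in ACHN siControl. The ratio of reads per fragment was 616 with an exact 95% interval of 110 to 24349, and the log2 difference was 5.08 (SE 0.21, adjusted p = 6.03e-06, limma). TWIST1 (ENSG00000122691, chromosome 7 from 19020991 to 19117672) was listed at 0 in all 12 libraries, which allows up to 3 reads, or 0.0383 to 0.0513 FPKM. As a description of levels, SNAI1 was higher in 769-P, ZEB2 and TWIST2 were higher in ACHN, and ZEB1 was present in both. SNAI1, ZEB2 and TWIST2 passed the filter only through the line where each was higher, so their tests add nothing to these levels.

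Other genes of the switch did not all line up with CDH1 between the lines. The list counts that follow stand beside the same background, in which 61.5% of all genes tested differed, 29.3% higher and 32.2% lower in ACHN. As with the 10 genes, some listed genes passed the filter only through the line where they were higher and so had to differ. Among those named below, KRT19, SPARC, THY1, LOX, TNC, KLF8, CDH13 and NDUFA4L2 did so through ACHN, and CDH6 through 769-P. The list counts are therefore a description. Of the 29 genes for epithelial junctions and keratins, 25 were tested, and 7 were higher and 10 lower in ACHN, with a median log2 difference of -0.08 against -0.04 over all genes tested. KRT19, a keratin of simple epithelia, was at 277 FPKM in ACHN and 0.183 FPKM in 769-P (log2 difference 9.86, adjusted p = 1.04e-06, limma). CLDN4, which encodes the tight junction protein claudin-4, was the reverse, with 0.640 FPKM in ACHN and 76.6 FPKM in 769-P (log2 difference -6.75, adjusted p = 1.30e-06, limma). The desmosomal gene PKP2 and the keratin gene KRT7 were higher in ACHN, by 3.61 and 2.73 on the log2 scale. Neither line thus held the whole epithelial set.

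Of the 24 mesenchymal genes, 17 were tested, and 8 were higher and 3 lower in ACHN, with a median of 0.64. The largest were SPARC, THY1, LOX and TNC, which encode matrix proteins, a surface glycoprotein and a collagen crosslinking enzyme. Their log2 differences were 10.16, 8.95, 8.43 and 6.91. Their means in 769-P were at or below 0.118 FPKM, so they passed the filter only through ACHN and had to differ. VIM was at similar means in both lines, with a log2 difference of 0.03 (95% interval -0.32 to 0.38). Of the 15 other transcription factors of the switch, 11 were tested, and 3 were higher and 7 lower in ACHN, with a median of -0.81. SOX9, FOXC1 and FOXC2 were lower by 4.57, 4.08 and 3.49 on the log2 scale (log2 differences -4.57, -4.08 and -3.49), and KLF8 was higher by 2.88.

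Of the 16 corepressors and turnover factors of SNAI and ZEB proteins, 3 were higher and 7 lower, with a median of -0.37. AJUBA and FBXL14 were higher by 1.98 and 1.30, and the deacetylase genes HDAC1 and HDAC2 were lower (log2 differences -1.22 and -1.08). Of the 10 epithelial transcription and splicing regulators 3 were tested. GRHL2, ESRP1 and OVOL1, among those not tested, had group means of at most 0.0231 FPKM in both lines. GRHL1, ESRP2 and EHF, also not tested, had higher siControl means in ACHN. These were 1.03 against 0.284, 0.314 against 0.0415 and 0.0461 against 0.00237 FPKM, and the lowest ACHN library of GRHL1 was at 0.209 FPKM. OVOL2 went the other way, at 0.0217 against 0.0532 FPKM. Of the genes tested, KLF4 was the 1 that differed (log2 difference -1.23). Of the 8 other cadherins, 4 were tested and all 4 differed, where 61.5% of all genes did. CDH13 and CDH6 passed the filter only through the line where each was higher, so that count is a description. CDH13 and CDH4 were higher in ACHN by 5.30 and 1.63, and the kidney cadherins CDH6 and CDH16 were lower (log2 differences -5.90 and -1.86). Of the 10 renal carcinoma markers, 9 were tested, and 3 were higher and 3 lower in ACHN. NDUFA4L2 and ANGPTL4 were among those higher (log2 differences 4.70 and 4.14). LHX1 was lower (log2 difference -1.89), as were CDH6 and CDH16, which are on the list of other cadherins too.

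**Figure D1:**
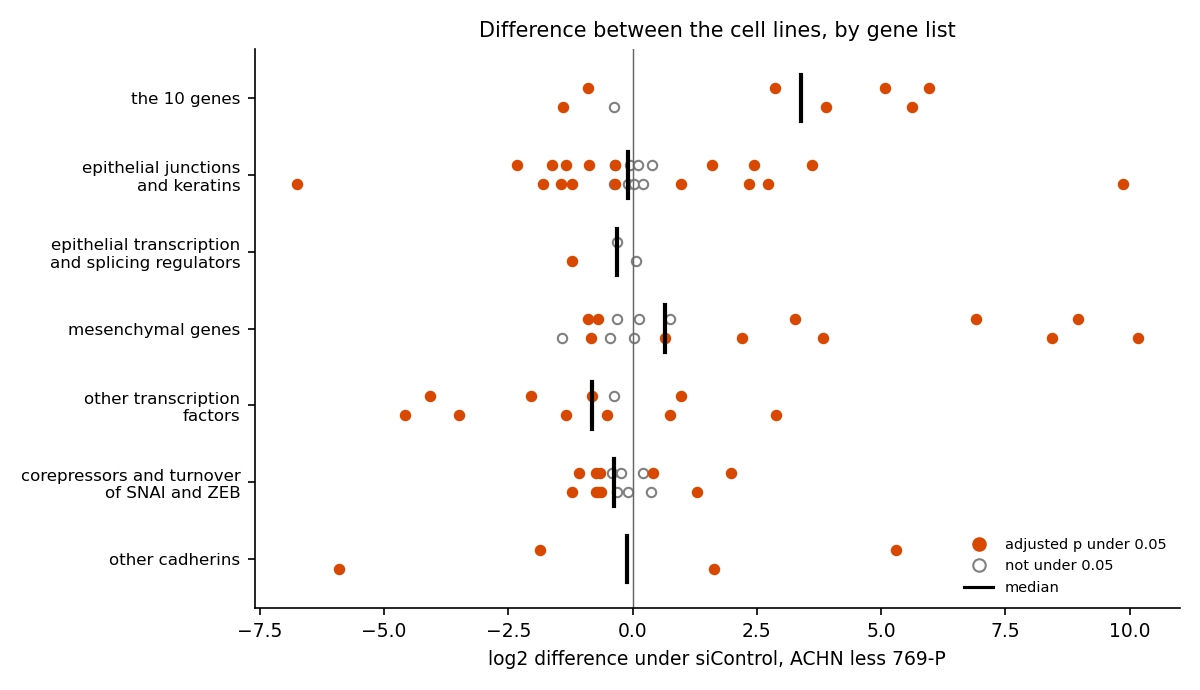
Difference between ACHN and 769-P under siControl for each tested gene of 7 lists, on the log2(FPKM + 0.1) scale, with filled points for an adjusted p under 0.05 and a bar at each list's median. The epithelial junction list spreads to both sides, from -6.75 for CLDN4 to 9.86 for KRT19, and its median is -0.08.

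The next question was whether the 10 genes changed with siNUF2 within each line. In 769-P cells 5 of the 10 passed the filter, and 0 of the 5 passed the test, where 9.98% of the 14155 genes tested did. With replicate number as a block, 1 of the 5 passed, FN1, where 27.5% of all genes did and 13.6% were higher. In ACHN cells 8 of the 10 passed the filter, and 0 of 8 passed the test, where 0% of the 15116 genes tested did. That count of 0 came from limma. There, 1238 genes had an unadjusted p under 0.05, and limma-voom on the recovered reads also gave 0. NUF2, the targeted gene, did not pass in ACHN either (log2 difference -1.87, adjusted p = 0.224, and 0.0122 with the block, limma). The count of 0 without the block therefore cannot be read as no response. With the block, 1 of the 8 passed, CDH1, where 12.2% of all genes did and 7.14% were higher. In both lines 1 call among so few genes was near or below the share over all genes.

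CDH1 in ACHN cells was at 15.2, 7.02 and 9.88 FPKM with siNUF2 and at 10.1, 5.28 and 4.69 FPKM with siControl. In each same-numbered pair the siNUF2 library was higher, at 150.4, 133 and 211% of its siControl library, while the groups as a whole overlapped. The means were 10.7 ± 4.17 and 6.70 ± 2.99 FPKM (SD, n = 3). The log2 difference was 0.70, with SE 0.39 and adjusted p = 0.752 in limma without the block and SE 0.13 and adjusted p = 0.0369 with it. The call was lost under other settings: without the pair of replicate 1 the log2 difference was 0.75 (blocked adjusted p = 0.0955, limma), and with no filter on low values it was 0.70 (blocked adjusted p = 0.131, limma). Of all genes tested in ACHN, 26.9% were higher in all 3 pairs. In bulk RNA, fewer cells that express a gene and less RNA per cell cannot be told apart.

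In 769-P cells CDH1 was at 0.0310, 0.0281 and 0.0316 FPKM with siNUF2, from 6, 5 and 6 reads, against 1, 0 and 0 reads with siControl. The siNUF2 libraries were all above the siControl libraries. Among genes that passed the filter in 769-P, 33.3% did not overlap between the groups. The ratio of CDH1 reads per fragment was 17.6, with an exact 95% interval of 2.75 to 734 that covers counting error only. The gene was below the filter in every 769-P library. Fitted with no filter, the log2 difference was 0.36 and the adjusted p was 0.128 in limma (0.166 with the block). Even with siNUF2 the 769-P mean of 0.0302 FPKM was far below the lowest ACHN value of 4.69 FPKM.

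FN1 in 769-P cells was at 2.00, 3.67 and 4.55 FPKM with siNUF2 and at 1.51, 2.45 and 2.32 FPKM with siControl. Each siNUF2 library was above its same-numbered siControl library, at 132, 149.8 and 196% of it, as were 29.7% of all genes tested, and the groups overlapped. The log2 difference was 0.64, with SE 0.31 and adjusted p = 0.233 in limma without the block and SE 0.12 and adjusted p = 0.0221 with it. With the block and no filter on low values the adjusted p was 0.0866 (limma). With 1 library left out and no block the difference ran from 0.40 without siNUF2 replicate 3 to 0.97 without siNUF2 replicate 1. In ACHN cells FN1 was at 265, 40.8 and 85.1 FPKM with siNUF2 against 304, 40.3 and 104 FPKM, and the pairs went both ways (log2 difference -0.14, adjusted p = 0.997, and 0.213 with the block, limma).

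CDH2 was at 63.7, 63.4 and 74.4 FPKM with siNUF2 in 769-P and at 43.7, 35.1 and 50.1 FPKM in ACHN. The log2 differences were -0.07 (95% interval -0.28 to 0.15) in 769-P and 0.14 (95% interval -0.34 to 0.62) in ACHN. Every 769-P pair was lower and every ACHN pair higher with siNUF2, by small amounts. Of all genes tested, 33.4% were lower in all 3 pairs in 769-P and 26.9% were higher in all 3 in ACHN. CDH2 passed the test with the block in neither line (adjusted p = 0.282 and 0.0928, limma). EPCAM was at 0.772, 1.17 and 0.542 FPKM with siNUF2 in 769-P and at 10.2, 18.4 and 17.2 FPKM in ACHN. Its differences were -0.04 (95% interval -0.72 to 0.65) and 0.11 (95% interval -0.75 to 0.96), so that a change of up to about that size in either direction could not be told from none.

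SNAI1 was at 1.04, 0.639 and 0.559 FPKM with siNUF2 in 769-P and was lower than siControl in each of the 3 pairs, at 83.3, 72.0 and 80.3% of it. It did not pass the test (log2 difference -0.30, adjusted p = 0.557, and 0.189 with the block, limma). In ACHN it was at 0.146, 0.308 and 0.156 FPKM, at 77.3, 60.7 and 61.6% of siControl, below the filter. With no filter the ACHN log2 difference was -0.41 (adjusted p = 0.902, limma). SNAI1 was therefore lower in all 3 pairs of each line without passing in either. Among all genes tested, 33.4% in 769-P and 28.0% in ACHN were lower in all 3 pairs. The ACHN share is over genes that passed the filter, and the share lower in all pairs of both lines was not counted.

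ZEB2 in 769-P was at 0.246, 0.139 and 0.194 FPKM with siNUF2, from 442 reads in all, against 0.276, 0.302 and 0.326 FPKM and 709 reads with siControl. The groups did not overlap, as for 33.3% of the genes tested in 769-P. ZEB2 was below the filter there, and limma-voom on the recovered reads, which did include it, gave a log2 difference of -0.66 and an adjusted p of 0.0636. In ACHN it was at 2.68, 2.17 and 3.19 FPKM against 3.59, 2.07 and 3.26 FPKM, with a log2 difference of -0.11 (95% interval -0.70 to 0.49). ZEB1 was at 3.38, 3.14 and 4.16 FPKM with siNUF2 in 769-P and at 3.58, 2.16 and 2.99 FPKM in ACHN. Its log2 differences were 0.12 (95% interval -0.30 to 0.53) and 0.15 (95% interval -0.43 to 0.73).

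TWIST2 in ACHN was at 4.83, 3.03 and 3.67 FPKM with siNUF2, each at or above its pair, with a log2 difference of 0.12 (95% interval -0.39 to 0.64). In 769-P it had 1 read with siNUF2 and 1 with siControl. SNAI2 in ACHN was at 0.112, 1.44 and 1.51 FPKM with siNUF2. Its log2 difference of 0.02 had a 95% interval of -2.48 to 2.51 without the block, the widest of the 8 genes tested in ACHN. With the block the interval was -0.61 to 0.64. In 769-P it was at 0.130, 0.0946 and 0.162 FPKM, from 26 reads against 20 with siControl.

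**Figure D2:**
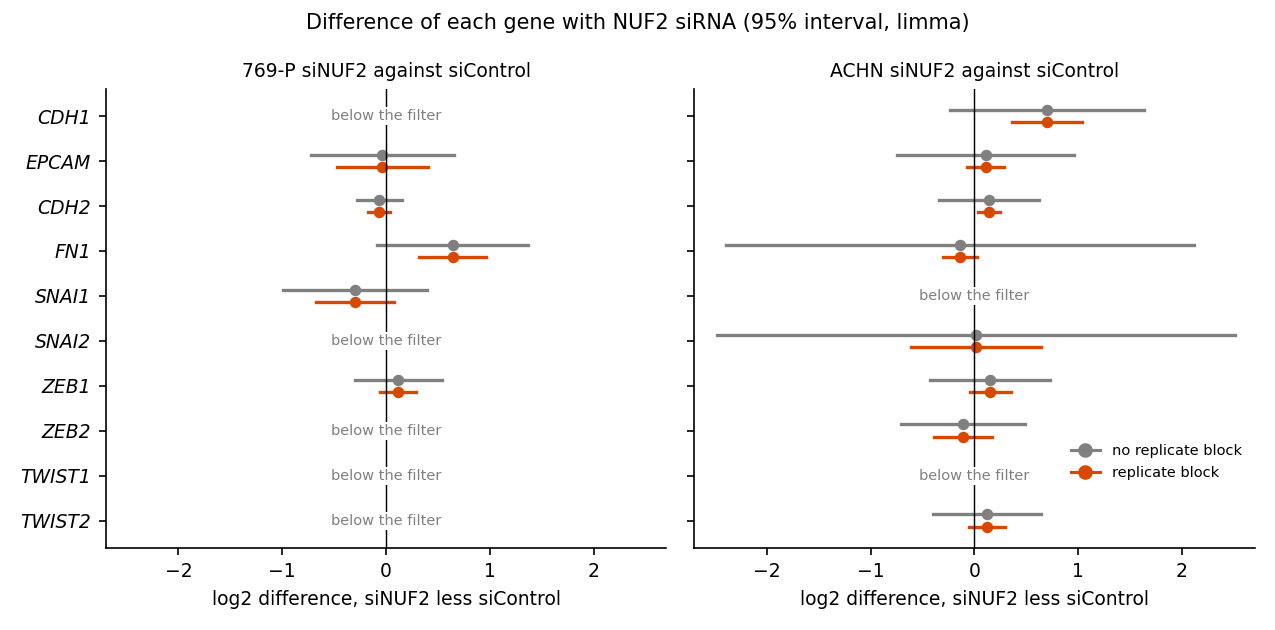
Difference between siNUF2 and siControl for each gene, on the log2(FPKM + 0.1) scale, with its 95% interval from limma without (grey) and with (orange) replicate number as a block; genes below the filter are named as such. The orange intervals of FN1 in 769-P (0.32 to 0.96) and of CDH1 in ACHN (0.36 to 1.04) lie above 0, and that of CDH2 in ACHN (0.03 to 0.24) does so before adjustment.

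The ACHN replicates stood apart from each other for several of the 10 genes, with the same replicate at one end of the range in both arms. FN1 was highest in replicate 1 and lowest in replicate 2 with either siRNA, 6.49-fold apart with siNUF2 and 7.53-fold apart with siControl. SNAI2 was lowest in replicate 1, 13.5-fold below the highest library with siNUF2 and 9.57-fold below it with siControl. CDH1 was highest in replicate 1 and EPCAM was lowest in replicate 1 in both arms. Over all genes tested the median distance between the highest and lowest of 3 libraries was 1.34-fold and 1.35-fold in ACHN, and 1.20-fold and 1.21-fold in 769-P. Only 1.70 and 1.27% of the genes tested in the 2 ACHN groups were as far apart as FN1, and 0.561 and 0.848% as far apart as SNAI2. Since replicate 1 carried more CDH1 and more FN1 in both arms, the pairwise ratios above take this distance out and the means do not.

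HMGA2, an architectural chromatin protein gene that the study places between NUF2 and E-cadherin, was lower in every siNUF2 library than in its pair (log2 difference -2.27 in 769-P, adjusted p = 0.00271, and -1.76 in ACHN, adjusted p = 0.434, and 0.00800 with the block, limma). Within ACHN the 3 replicates kept HMGA2 at 30.7, 29.5 and 26.7% of siControl and CDH1 at 150.4, 133 and 211%. Replicate 1 had the highest level of both genes in both arms, with HMGA2 at 51.7 FPKM under siControl and 15.9 FPKM with siNUF2. A link between the 2 genes was not tested. The study measured E-cadherin as protein by western blot, which these RNA values do not show.

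The lists around the 10 genes were then compared. Their counts in 769-P without the block stand beside the 9.98% of all genes tested that passed there. In 769-P, 23 of the 29 genes for epithelial junctions and keratins were tested, and 1 rose and 3 fell, with a median log2 difference of -0.10 against -0.01 over all genes. CLDN4 fell from 76.6 to 46.4 FPKM (log2 difference -0.72, adjusted p = 0.0247, limma). MARVELD2, a protein gene of tricellular junctions, and CTNNB1, which encodes the beta-catenin that binds the tail of E-cadherin, fell by 0.61 and 0.28, and the plakophilin gene PKP3 rose by 0.49. Of 10 mesenchymal genes tested 2 rose and 0 fell, with a median of 0.17. LOXL2, which encodes an enzyme that crosslinks collagen, was among them and rose from 78.7 to 97.9 FPKM (log2 difference 0.32, adjusted p = 0.0295, limma).

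Of 9 other transcription factors tested in 769-P, FOXC1 fell from 23.7 to 6.74 FPKM (log2 difference -1.75, adjusted p = 0.0251, limma) and the other 8 did not pass without the block. Of 16 corepressors and turnover factors, HDAC1 rose from 56.8 to 84.7 FPKM (log2 difference 0.59, adjusted p = 0.00531, limma). Of 4 other cadherins and 3 epithelial transcription regulators tested none passed without the block. The lowest p-values there were those of CDH16 (log2 difference -0.61, adjusted p = 0.122) and ELF3 (log2 difference -0.35, adjusted p = 0.566, limma). Of 8 renal carcinoma markers tested, PAX8 fell by 0.44.

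With the block, under which 27.5% of all genes tested in 769-P passed, more of these genes did. Of the 4 other cadherins 3 fell, namely CDH16, CDH6 and CDH4 (log2 differences -0.61, -0.55 and -0.37, blocked adjusted p = 0.00582, 0.00734 and 0.0497, limma). Of the 3 epithelial transcription regulators ELF3 fell (blocked adjusted p = 0.0123, limma). Of the 9 other transcription factors 2 rose, FOXC2 and TCF3 (log2 differences 0.96 and 0.31), and 3 fell, FOXC1, SOX4 and SOX9 (log2 differences -1.75, -0.77 and -0.68). Of the 16 corepressors and turnover factors 2 rose and 4 fell, and of the 8 renal carcinoma markers 1 rose and 4 fell. CDH6 and CDH16 are on the lists of other cadherins and of renal carcinoma markers, so they are counted in each.

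In ACHN none of these lists had a gene past the test without the block, and neither did the genes tested as a whole. The blocked counts that follow stand beside the share of all genes tested that passed with the block. That share was 12.2% in ACHN, with 7.14% higher, and 27.5% in 769-P, with 13.6% higher. With the block, 3 of the 25 tested genes for epithelial junctions and keratins rose and 0 fell, against 6 and 8 of 23 in 769-P. KRT18, which encodes the keratin partner of KRT8, was at a mean of 90.6 against 60.8 FPKM (log2 difference 0.60, blocked adjusted p = 0.0118, limma). Of 18 mesenchymal genes tested, 3 rose and 2 fell with the block, against 4 and 1 of 10 in 769-P. THY1 was lower and ACTA2 higher (log2 differences -0.36 and 0.30, blocked adjusted p = 0.0215 and 0.0445, limma). Of 10 other transcription factors tested, 2 rose and 1 fell with the block, among them SOX4 with a log2 difference of -0.78. Of 16 corepressors and turnover factors, HDAC1 alone passed (log2 difference 0.51). Of 3 other cadherins, CDH4 and CDH13 passed (0.50 and 0.36), and of 4 epithelial transcription regulators KLF4 passed (-0.72). The median log2 difference of the 8 tested genes was 0.12 and that of the epithelial junction list was -0.01, against 0.01 over all genes.

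With the block, 8 of the 68 listed genes tested in both lines passed in both (11.8%), against 8.75% of the 12930 genes tested in both. Of the 8, 7 went in the same direction and 1 in opposite directions, and over all genes that passed in both lines 98.0% went in the same direction. The 8 are named here after their values were seen. KRT8, KRT18, AXL, FOXC2, TCF3 and HDAC1 rose in both lines and SOX4 fell in both, while CDH4 fell by 0.37 in 769-P and rose by 0.50 in ACHN.

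**Figure D3:**
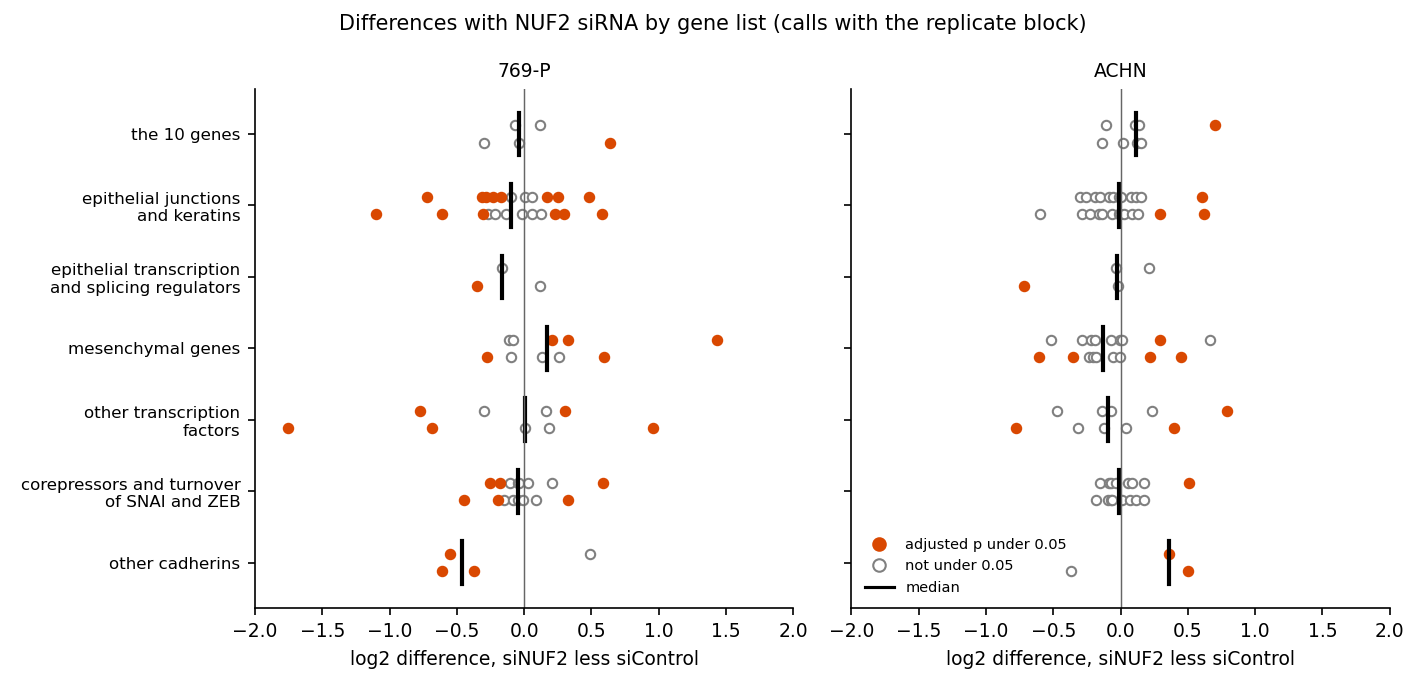
Difference between siNUF2 and siControl for each tested gene of 7 lists in 769-P and ACHN, on the log2(FPKM + 0.1) scale, with filled points for an adjusted p under 0.05 with the replicate block and a bar at each list's median. In both lines the medians of the junction list lie near 0 (-0.10 and -0.01), and filled points lie on both sides of 0 for the other transcription factors.

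Whether the response differed between the lines was tested in 1 fit of all 12 libraries, by subtracting the effect of siNUF2 in 769-P from that in ACHN. Of the 9 genes tested 0 passed, where 0% of the 16564 genes tested did (776 had an unadjusted p under 0.05, limma), and with the block again 0 of 9 passed, where 1.50% did. For CDH1 the response in ACHN less that in 769-P was 0.34 (95% interval -0.64 to 1.31, adjusted p = 1.00, and 0.408 with the block, limma). This value depended on how reads near 0 in 769-P were treated, and it was -1.11 with a pseudocount of 0.01. For FN1 it was -0.78 (95% interval -3.14 to 1.59), with a blocked adjusted p of 0.0664. The rise of FN1 in 769-P and of CDH1 in ACHN with the block was therefore not shown to be particular to either line.

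By Pearson r of log2(FPKM + 0.1) over the 12 libraries, the genes most like CDH1 were C3orf52, SKAP1, SLC2A3, VSTM2L and CHRDL1, with r from 0.997 to 0.998 among 16564 genes. The 12 points fall into the 2 lines, and all 5 genes had means of at most 0.0474 FPKM in 769-P and at least 0.841 FPKM in ACHN, so that the measure mostly repeats the difference between the lines. SLC2A3, which encodes the glucose transporter GLUT3, was at 7.42 FPKM with siNUF2 and 5.37 FPKM with siControl in ACHN.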

How the data were processed

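Total RNA of 769-P and ACHN cells, 48 h after transfection, was sequenced in 12 libraries. The authors filtered reads with fastp, and the submitters' processing notes name HISAT2 2.0.5, featureCounts 1.5.0-p3 and hg38; the strand setting and annotation are not given in the sources used here, and 5 of the 10 genes share 2.75 to 6.94% of their exon bases with an antisense gene. The authors deposited FPKM, 1 value per gene and library. Lengths from GENCODE 29 gave back whole reads, within 0.05, for 96.2 to 96.6% of values under 500 reads, and served for depth, counting intervals and limma-voom. For SNAI2 and ZEB2 the annotated lengths of 3392 and 25058 bases did not. Lengths of 2204 and 24970 bases, searched for so that reads were whole in all 12 libraries, were used for them. The reads of SNAI2 and ZEB2 and their limma-voom results rest on these fitted lengths.

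FPKM were scaled by a trimmed mean of log ratios, and log2(FPKM + 0.1) was fitted with limma 3.58.1 (R 4.3.3, lmFit, eBayes with trend) for genes that reached a scaled FPKM of 0.5 in 3 or more libraries (as many as the smallest group holds, where one was left out). Benjamini-Hochberg adjustment was over all genes tested, at 0.05. An exact permutation test of 3 against 3 cannot go below 0.1. No library was a copy of another.

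Replicate numbers come from the labels. Same-numbered libraries deviated together in 769-P (correlations 0.190 to 0.359) and ACHN (0.460 to 0.735), so the fit with replicate number as a block is given where it changes a call. Intervals of log2 differences are from the fit without the block unless the block is named. On simulated data a log2 change of 1 was called in 769-P for 74.5% of genes without and 68.0% with the block, and in ACHN for 34.4 and 69.1%. The data were drawn separately for the fits without and with the block. Without it the noise was the spread within groups. With it, shared replicate deviations were built in and the noise was the spread left after the block. The percentages therefore do not compare both fits on the same data.

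The 10 genes and the lists were chosen with earlier results of these data known. By rule the text names NUF2, HMGA2, the 10 genes, up to 4 passing genes per list with the largest change (or the 2 lowest p), and the 5 genes most like CDH1; 1 gene of the mesenchymal list is counted but not reported here. Alternatives were other scalings, no filter, pseudocounts of 1 and 0.01, the block, 1 fit of all 12 libraries and each library left out. Python 3.11.15, pandas 2.3.3, SciPy 1.17.1 and matplotlib 3.10.9 were used.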

Additional observations from a re-analysis of the deposited data

Results flagged for a closer look

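For CDH2, every same-numbered pair was lower with siNUF2 in 769-P and higher in ACHN. Of all genes tested, 33.4% were lower in all 3 pairs in 769-P and 26.9% were higher in all 3 in ACHN. The share of genes with both patterns was not counted. The response in ACHN less that in 769-P was 0.21 on the log2 scale (adjusted p = 1.00 in limma without the replicate block and 0.0911 with it), so the test of the difference did not pass.

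With the block, genes of the lists that passed the test of a difference in response between the lines included the following 6. None of them passed without it (adjusted p from 0.864 to 1.00, limma). They are named because they passed, and over all 16564 genes tested 1.50% passed with the block. Of the 25 junction and keratin genes tested, 3 passed with a higher response in ACHN and 1 with a lower one. Of the 11 other transcription factors tested 1 passed, and of the 5 other cadherins 1. CLDN4 fell in 769-P and had a log2 difference of 0.0040 in ACHN, with a response higher in ACHN by 0.73. FOXC1 likewise fell in 769-P, with a difference in response of 1.80. KRT7 had a difference in response of -0.83. KRT8 and KRT18, which passed in both lines with the block, had differences of 0.46 and 0.35. CDH4 fell in 769-P and rose in ACHN with the block, with a difference of 0.87 (blocked adjusted p = 0.0492, limma).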

How the results depend on the processing

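Of the 10 genes, CDH1, CDH2, SNAI1, ZEB2, TWIST2, FN1 and EPCAM differed between the lines under every setting run, and ZEB1 under none. SNAI2, below the filter, was called in 3 of 7 settings that included it. The numbers of same-numbered libraries did not pair the lines under siControl (correlations -0.06, -0.01 and 0.04). The replicate block, added to the fit, raised the members called with siNUF2 from 0 to 1 in either line and changed no other call of a member. Over the settings the adjusted p of CDH1 in ACHN ran from 0.0369 to 0.995 and that of FN1 in 769-P from 0.0221 to 0.750 (limma), with the lowest in each case from the block.

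Counts over all genes moved more. In 769-P 1412 genes passed, 3898 with the block, 635 with no filter, 700 in 1 fit of 12 libraries and 341 to 1101 with a library left out. In ACHN 0 passed, 1843 with the block, 171 in 1 fit of 12 libraries, and 239 with the block and without replicate 1 of both groups. The interaction gave 0 genes, 249 with the block, 15 with no filter, 2 with a pseudocount of 0.01, and 0 to 1 with a library left out. The cause was not tested, except that leaving libraries out leaves fewer samples.

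Several differences that were not called changed sign with 1 library left out, whereas those of CDH2, SNAI1 and FN1 in 769-P and of CDH1, CDH2, FN1 and ZEB2 in the interaction did not. In 769-P EPCAM ran from -0.29 to 0.20 and ZEB1 from -0.019 to 0.28. In ACHN FN1 ran from -0.87 to 0.60, SNAI2 from -0.76 to 0.98, EPCAM from -0.21 to 0.37, ZEB2 from -0.34 to 0.043, ZEB1 from -0.020 to 0.35, TWIST2 from -0.057 to 0.28 and CDH2 from -0.026 to 0.28. CDH1 kept its sign there (0.40 to 1.04). In the interaction SNAI2 ran from -0.999 to 0.74, SNAI1 from -0.35 to 0.19, EPCAM from -0.17 to 0.41, ZEB1 from -0.15 to 0.22 and TWIST2 from -0.059 to 0.27. SNAI2 in ACHN was -0.042 with a pseudocount of 0.01 and -0.13 by limma-voom, and ZEB2 in ACHN was 0.030 without replicate 1 of both groups, with and without the block. With a pseudocount of 1 the interaction was 0.035 for SNAI1 and 0.0099 for SNAI2, and with 0.01 it was -1.11 for CDH1. limma-voom, the fits without replicate 1 of both groups and the block with no filter were chosen after seeing the data. Depth limits CDH1, TWIST1 and TWIST2 in 769-P, with at most 6 reads per library.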
